A study of Mus musculus with 2 samples.

Results

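The cells described here are mesenchymal cells of the mouse embryo that held RNA of the homeobox genes Barx1 or Nkx6-1. They were chosen by their counts of unique molecular identifiers (UMIs, which tag single captured RNA molecules). A cell was a member when it had at least 1 UMI of Barx1 or Nkx6-1 and at least 1 UMI of Foxf1 or Osr1, 0 UMIs of Epcam, Upk3b and Wt1, and less than 0.5% of its UMIs from the sarcomere genes Actc1, Tnnt2, Myl7, Myl4, Tnnc1 and Tnni1. Of 8972 cells with at least 400 genes detected and at most 10% mitochondrial UMIs, 220 were members. They comprised 124 of 4038 cells (3.07%, exact 95% interval 2.56% to 3.65%) in replicate 1 and 96 of 4934 cells (1.95%, 1.58% to 2.37%) in replicate 2, with intervals that cover counting error only.

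The 2 libraries, both of the same group and both part of every comparison, were made by Drop-seq (cells captured in droplets with barcoded beads) from wild-type CD1 embryos at E10.0. The tissue was the heart tube with the posterior second heart field, a progenitor region behind the heart that lies against the foregut, cut out by hand, and each library pooled about 80 embryos. The deposited barcodes numbered 5000 in replicate 1 (11958912 UMIs) and 7497 in replicate 2 (14131384 UMIs). There was no treated, mutant or later group, so every comparison below is between populations of cells in the same libraries. Where a pair of values is given for a population, it is replicate 1 then replicate 2. The study concerns Hedgehog signalling and differentiation timing, and the dissection was not aimed at the gut, so the mesenchyme is that which came with the heart field.

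Splanchnic mesenchyme is the mesoderm that lines the gut tube and later forms the connective tissue and smooth muscle of the gut and airways. Foregut endoderm secretes Hedgehog ligand, the adjoining mesenchyme receives it through Ptch1 and the Gli transcription factors, and Foxf1, with the long non-coding RNA Fendrr transcribed the other way from beside it, is a well known response in that mesenchyme. Barx1 is a homeodomain factor of stomach mesenchyme, where in the mouse it is known to raise secreted Wnt antagonists. Nkx6-1 is a homeodomain factor best known from pancreas and ventral neural tube that is also found in mesenchyme around the developing airway and oesophagus. Osr1 is a zinc-finger factor of lateral and intermediate mesoderm, and Tbx5 a T-box factor of the heart field, the forelimb and the lung mesenchyme.

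Barx1 lies at chr13:48662998-48666507 on the plus strand of mm10 and Nkx6-1 at chr5:101658139-101664996 on the minus strand, both protein-coding genes in GENCODE M21. The windows from 250 bases before to 50 bases after their RefSeq starts (GRCm38.p6) are printed because these genes divide the members. They were searched on both strands for TGGGTGGTC, a Gli binding motif, and for its first 7 letters, TGGGTGG, which every 9-letter match also contains. The 9 letters were in none of the 7 windows found among 13 genes looked up (Barx1, Nkx6-1, Fendrr, Cxcl13, Ptch1, Hhip and Foxf2), and 0.253% of the 32851 RefSeq mouse windows of this length held them. The 7 letters were in 1 of the 7, that of Barx1, from 226 bases before the start (capitals), and 9.30% of all windows held them. A match is a description of the letters and not evidence of binding. The first window is that at chr13:48662786-48663085, plus strand, and the second that at chr5:101664662-101664961, minus strand, each 5′ to 3′.
Barx1: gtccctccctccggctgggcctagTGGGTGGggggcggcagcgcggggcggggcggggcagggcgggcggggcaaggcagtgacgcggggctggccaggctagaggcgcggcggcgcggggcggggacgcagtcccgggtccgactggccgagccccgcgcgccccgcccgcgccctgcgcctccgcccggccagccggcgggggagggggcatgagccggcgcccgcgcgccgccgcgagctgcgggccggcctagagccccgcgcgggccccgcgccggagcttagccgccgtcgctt
Nkx6-1: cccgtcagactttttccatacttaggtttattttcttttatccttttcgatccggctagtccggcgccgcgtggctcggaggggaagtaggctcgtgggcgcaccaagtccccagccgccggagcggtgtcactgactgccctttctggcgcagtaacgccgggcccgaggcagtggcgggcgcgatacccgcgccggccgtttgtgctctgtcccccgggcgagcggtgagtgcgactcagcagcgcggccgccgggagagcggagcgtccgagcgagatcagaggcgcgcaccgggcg

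By their UMIs of Barx1 and Nkx6-1 the members fell into 3 classes. Barx1 without Nkx6-1 was counted in 47 cells of replicate 1 and 40 of replicate 2 (37.9% and 41.7% of members), Nkx6-1 without Barx1 in 74 and 55 cells (59.7% and 57.3%), and both genes in 3 and 1 cells. A cell without a UMI of a gene may still express it, and with so few UMIs of either gene per cell a cell with both may show only 1 of them, so these counts are a description. Barx1-only cells had a median of 2493 and 2973 UMIs per cell and Nkx6-1-only cells 4700.5 and 3887, so the classes also differed in depth. Foxf1 UMIs were in 31 of 47 and 19 of 40 Barx1-only cells and in 40 of 74 and 25 of 55 Nkx6-1-only cells. Osr1 UMIs were in 29 of 47 and 32 of 40 Barx1-only cells and in 66 of 74 and 44 of 55 Nkx6-1-only cells. Tbx5, which the rule did not use, was in 6 of 47 and 3 of 40 Barx1-only cells (12.8% and 7.5%) and in 46 of 74 and 25 of 55 Nkx6-1-only cells (62.2% and 45.5%). After each cell was thinned to 1000 UMIs, the Tbx5 shares were 0% and 2.7% of 41 and 37 Barx1-only and 17.4% and 12.7% of 69 and 55 Nkx6-1-only cells that had that many.

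Membership often rested on few molecules. In 57 and 52 members the rule was met by exactly 1 UMI of Barx1 and Nkx6-1 together, in 27 and 25 by 2. Before the other conditions, 340 and 310 cells had a UMI of Barx1 or Nkx6-1. Asking for Foxf1 or Osr1 left 142 and 115, leaving out Epcam left 130 and 103, leaving out Upk3b and Wt1 left 125 and 100, and the sarcomere limit left 124 and 96. The highest sarcomere share among members was 0.435% and 0.466%, and the lowest among cells kept out by it was 1.04% and 0.784%. No barcode that passed the cell filters and none of the members occurred in both libraries, and 1 and 1 members were among the 5% of cells with the highest doublet scores. In barcodes of 10 to 200 UMIs, which hold mostly free RNA, Barx1 had 3 and 0 UMIs and Nkx6-1 0 and 2, of 8713 and 55494 UMIs in all. Per UMI this was 344 and 0 CPM for Barx1 and 0 and 36 CPM for Nkx6-1, against 228 and 182 CPM and 232 and 214 CPM in members, and at 3 UMIs or fewer per library it does not set a level of free RNA.

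The cells with Barx1 or Nkx6-1 that had no Foxf1 or Osr1 UMI, and so did not enter the rule's population, were unlike the members in part. There were 73 and 94 such cells with Barx1 and 88 and 70 with Nkx6-1. The Barx1 ones of replicate 2 had 144 CPM (the gene's UMIs over all UMIs of the population, scaled to 1000000) of Dlx2 and 211 CPM of Dlx5, homeobox genes of neural crest mesenchyme, and those of replicate 1 had 0 of both. The Nkx6-1 ones had summed neural tube markers of 747 and 644 CPM, and the Nkx6-1-only members 34.6 and 36.4 CPM. Ifitm1 was at 173 and 108 CPM in the kept-out Barx1 cells and 11.5 and 5.32 CPM in the kept-out Nkx6-1 cells, while Sparcl1 was at 35.7 and 58.6 CPM in the Barx1 ones and 273 and 165 CPM in the Nkx6-1 ones. No test was run on these cells by themselves. In the tests below they were counted among the remaining cells, a population defined next.

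The genes by which these cells had been named foregut splanchnic mesenchyme were then set against the other cells. For this, passing cells were divided in each library into the members and 7 others that share no cell: Tbx5-positive cells (Tbx5 with Foxf1 or Osr1, 0 Barx1 and Nkx6-1), other Foxf1 or Osr1 cells, a pharyngeal gate (Tbx1 or Msc without Foxf1 and Osr1), a mesothelial gate (Upk3b or Wt1), an Epcam gate for epithelium, a sarcomere gate (at least 5% sarcomere UMIs) and the remaining cells. Barx1, at 228 and 182 CPM in members, and Nkx6-1, at 232 and 214 CPM, were chosen to be there. Foxf1 was at 159 and 135 CPM in members, against 139.6 and 163 CPM in Tbx5-positive and 129.8 and 195 CPM in other Foxf1 or Osr1 cells, all selected for it in part. Osr1 was at 431 and 409 CPM in members, against 570.0 and 697 CPM in Tbx5-positive and 404 and 469.8 CPM in the other Foxf1 or Osr1 cells. The 41 and 88 sarcomere-gate cells had 0 UMIs of Barx1, Nkx6-1, Foxf1, Fendrr and Cxcl13.

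Fendrr, which no gate used but which lies beside Foxf1 and shares its chromosome stretch with the read-through transcript Gm20388 on the other strand, was at 71.3 and 44.9 CPM in members. It was at 85.3 and 47.2 CPM in Tbx5-positive cells and 26.5 and 26.8 CPM in other Foxf1 or Osr1 cells, so its values overlapped between members and Tbx5-positive cells (log2 difference -0.16 ± 0.39 SE, edgeR adjusted p = 0.953). Cxcl13, a chemokine that attracts B cells, was at 325 and 231 CPM in members, against 65.9 and 231 CPM in Tbx5-positive cells. Foxf1 took part in the rule for members and in the gates of Tbx5-positive and pharyngeal-gate cells, so its level checks nothing in the label. Within the members, Cxcl13 was at 67.9 and 10.7 CPM in Barx1-only and 487 and 386 CPM in Nkx6-1-only cells.

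**Figure D1:**
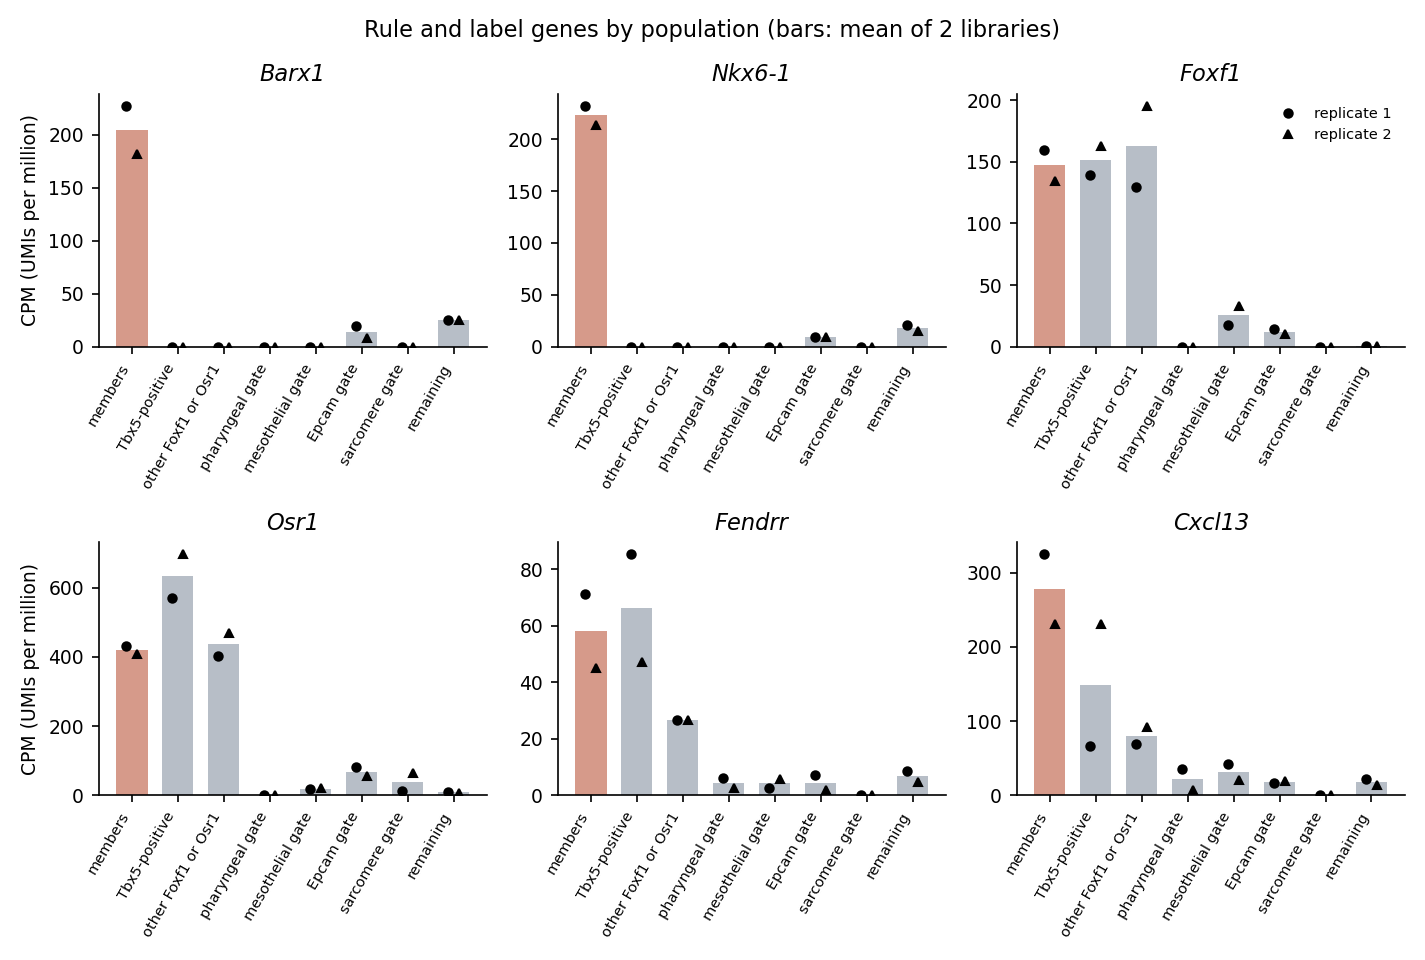
Level of the 5 label genes and of Osr1 in each population, as CPM on the vertical axis; each point is 1 library, bars are the mean of 2 libraries, and populations run along the horizontal axis with the members on the left. Fendrr was at 71.3 and 44.9 CPM in members and 85.3 and 47.2 CPM in Tbx5-positive cells, and Cxcl13 was at 325 and 231 CPM in members.

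Summed counts of each population and library went into a two-sided quasi-likelihood test in edgeR, with library as a term, and a gene passed at an adjusted p under 0.05 (Benjamini-Hochberg, over all genes tested). The 13 gate genes, with Tbx5, Tbx1, Msc and Gm20388, were left out of the tests. Differences are log2 fold changes with a standard error (SE) worked back from the difference and its test statistic. There were n = 2 libraries in each population, and the spread was estimated over all populations together. In bulk sums such as these, fewer expressing cells and less RNA per cell cannot be told apart.

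Barx1-only cells were set against Nkx6-1-only cells first, which asks whether the rule gathered like cells. Of 8104 genes tested, 40 (0.494%) were higher and 48 (0.592%) lower in Barx1-only cells, 1.09% in all. Ifitm1, an interferon-inducible membrane protein, Prnp, the prion protein, and the transcription factors Isl1, Gata4 and Gata6 were higher in Barx1-only cells. Sparcl1, a secreted matrix-associated glycoprotein, Cxcl13, the retinoic acid synthesising enzyme Aldh1a2, the proteoglycan Vcan and the ligand Wnt2 were lower. Without the library term, 7 genes were higher and 9 lower, among them Ifitm1, Prnp, Isl1, Sparcl1, Cxcl13, Aldh1a2 and Wnt2. With every cell thinned to 1000 UMIs, 5 were higher and 7 lower, among them Ifitm1, Isl1, Sparcl1, Cxcl13 and Vcan.

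Ifitm1 (chr7:140967221-140969825, plus strand) had 344 and 352 CPM in Barx1-only cells, against 37.1 and 69.1 CPM in Nkx6-1-only cells. The groups did not overlap, and the difference was 2.80 ± 0.26 SE (6.95-fold, edgeR adjusted p = 3.7e-10). Cells with an Ifitm1 UMI made up 51.1% and 57.5% of Barx1-only and 16.2% and 21.8% of Nkx6-1-only cells, and 31.7% and 35.1% of Barx1-only and 2.9% and 5.45% of Nkx6-1-only cells after thinning to 1000 UMIs. None of the sarcomere-gate cells, with a median of 2199 and 2269.5 UMIs, had an Ifitm1 UMI. Ifitm1 has close relatives in its family, and how reads shared among them were counted is not given in the sources used here. Prnp, whose gene overlaps Prn on the same strand, so that its counts are uncertain, had 178 and 187 CPM in Barx1-only and 22.3 and 47.3 CPM in Nkx6-1-only cells (2.50 ± 0.35 SE, edgeR adjusted p = 8.98e-06).

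Sparcl1 (chr5:104079111-104113733, minus strand) had 8.49 and 37.3 CPM in Barx1-only cells, against 653 and 331 CPM in Nkx6-1-only cells. It was 23.4-fold lower in Barx1-only cells (-4.55 ± 0.38 SE, edgeR adjusted p = 8.64e-12), the highest Barx1-only library lying far under the lowest Nkx6-1-only library. Sparcl1 UMIs were in 4.26% and 7.5% of Barx1-only and 73% and 50.9% of Nkx6-1-only cells and after thinning in 0% and 2.7% of Barx1-only and 42% and 20% of Nkx6-1-only cells. Sarcomere-gate cells had a share of 12.2% and 11.4%. Cxcl13 (chr5:95956951-95961068, plus strand) differed by -3.37 ± 0.40 SE (edgeR adjusted p = 1.51e-07), with UMIs in 17% and 5% of Barx1-only and 50% and 54.5% of Nkx6-1-only cells.

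**Figure D2:**
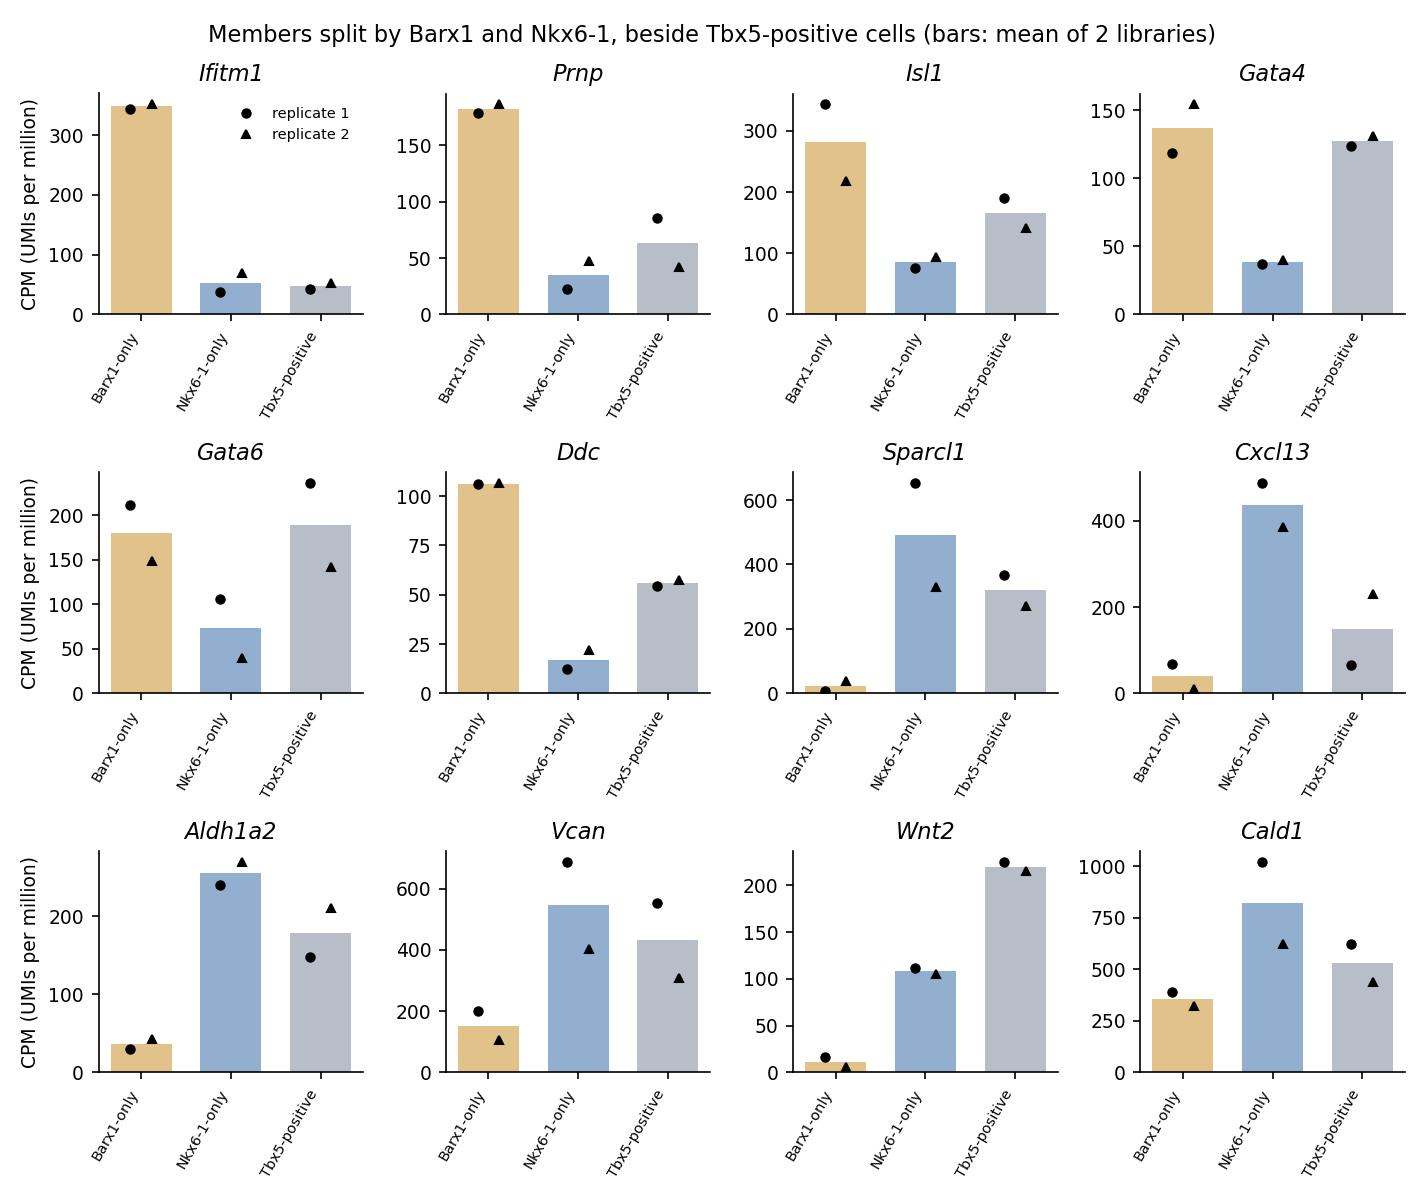
Level of 12 genes in Barx1-only, Nkx6-1-only and Tbx5-positive cells, left to right, as CPM on the vertical axis of each panel; each point is 1 library and bars are the mean of 2 libraries. Ifitm1 was at 344 and 352 CPM in Barx1-only cells and 37.1 and 69.1 CPM in Nkx6-1-only cells, and Sparcl1 at 8.49 and 37.3 CPM in Barx1-only cells and 653 and 331 CPM in Nkx6-1-only cells.

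Among 20 tested transcription factors of gut mesenchyme, 3 were higher, 1 lower and 16 did not pass, with a median log2 difference of 0.03, against -0.0013 over all genes tested. Isl1, a LIM-homeodomain factor of the second heart field that is also present in the mesenchyme of the distal stomach, had 344 and 219 CPM in Barx1-only and 76.6 and 94.6 CPM in Nkx6-1-only cells (1.78 ± 0.28 SE, 3.44-fold, edgeR adjusted p = 5.68e-05). Gata4, a zinc-finger factor of heart and foregut, had 119 and 155 CPM in Barx1-only and 37.1 and 40.0 CPM in Nkx6-1-only cells (1.85 ± 0.37 SE, edgeR adjusted p = 0.00255). Its relative Gata6 had 212 and 149 CPM in Barx1-only and 106 and 40.0 CPM in Nkx6-1-only cells (1.28 ± 0.28 SE, edgeR adjusted p = 0.00751). These 3 were named because they passed. That both libraries of Barx1-only cells lay above both of Nkx6-1-only cells for all 3 follows in part from that choice.

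The 12 tested Hox genes, which pattern the body from head to tail, included 2 that were higher in Barx1-only cells and none that were lower (median log2 difference 0.25). Hoxc4 had 76.4 and 42.7 CPM in Barx1-only and 7.42 and 18.2 CPM in Nkx6-1-only cells (edgeR adjusted p = 0.045). Hoxc5 had 6 and 8 UMIs in Barx1-only cells and 0 in Nkx6-1-only cells, hence at least 3.72-fold higher when 3 UMIs per library are taken as the limit of a count of 0, but its annotation overlaps Hoxc6, Hoxc8, Hoxc9 and Hoxc10 on the same strand, so the assignment is uncertain.

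In the retinoic acid and Wnt lists, the genes that passed were all lower in Barx1-only cells. Of 8 tested retinoic acid genes 2 were lower in Barx1-only cells and none higher (median -1.10). Aldh1a2 (chr9:71215789-71296243, plus strand) had 29.7 and 42.7 CPM in Barx1-only and 239.8 and 269 CPM in Nkx6-1-only cells (-2.81 ± 0.36 SE, 7.04-fold lower, edgeR adjusted p = 8.86e-07), without overlap. Crabp2, which carries retinoic acid to its nuclear receptor, had 63.7 and 240.0 CPM in Barx1-only and 339 and 389 CPM in Nkx6-1-only cells (-1.34 ± 0.26 SE, edgeR adjusted p = 0.00132). Of 17 Wnt pathway genes 3 were lower and none higher (median -1.83). Wnt2 (chr6:17988940-18030585, minus strand), a ligand of foregut mesenchyme with a known part in lung specification in the mouse, had 17 and 5.33 CPM in Barx1-only and 111 and 105 CPM in Nkx6-1-only cells (-3.18 ± 0.61 SE, edgeR adjusted p = 0.00132). The ligand Wnt4 had 0 UMIs in Barx1-only cells and 42 and 36.4 CPM in Nkx6-1-only cells, at least 2.73-fold lower. Sfrp2, a secreted Wnt antagonist, had 21.2 and 42.7 CPM in Barx1-only and 81.6 and 156 CPM in Nkx6-1-only cells (edgeR adjusted p = 0.0266).

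Of 16 matrix genes, Vcan was lower and Dcn, a small proteoglycan, higher in Barx1-only cells, and 14 did not pass (median -0.36). Vcan had 199.6 and 107 CPM in Barx1-only and 687 and 404 CPM in Nkx6-1-only cells (-1.83 ± 0.21 SE, edgeR adjusted p = 4.98e-08), and Dcn 76.4 and 32 CPM in Barx1-only and 7.42 and 14.5 CPM in Nkx6-1-only cells (edgeR adjusted p = 0.0458). Of 15 chemokine and secreted-signal genes, Dlk1 was higher and Cxcl13, Sparcl1 and Cxcl12 lower (median 0.28). Dlk1, a membrane-bound and shed growth regulator, had 297 and 379 CPM in Barx1-only and 121 and 171 CPM in Nkx6-1-only cells (edgeR adjusted p = 0.045). The chemokine Cxcl12 had 4.25 and 117 CPM in Barx1-only and 138 and 225 CPM in Nkx6-1-only cells (edgeR adjusted p = 0.0309). In replicate 2, 18 of its 22 UMIs in Barx1-only cells and 31 of its 62 in Nkx6-1-only cells came from 1 cell each, so its sums rested on few cells. Among 15 BMP and TGF-beta genes only Id2, an inhibitor of basic helix-loop-helix factors, passed, at 1036 and 992 CPM in Barx1-only and 650.2 and 629 CPM in Nkx6-1-only cells (edgeR adjusted p = 0.0446). The Notch ligand Jag1, 1 of 5 Notch genes tested, had 0 and 2 UMIs in Barx1-only cells, against 44.5 and 61.8 CPM in Nkx6-1-only cells, which were 10.9-fold higher (95% counting interval 2.8 to 93.5).

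Of 13 smooth muscle genes, 3 were lower in Barx1-only cells and none were higher (median -1.20), but they did not stand alike. Cald1, caldesmon, had 391 and 320.0 CPM in Barx1-only and 1021 and 622 CPM in Nkx6-1-only cells (-1.20 ± 0.19 SE, edgeR adjusted p = 6.49e-05). Tagln had 0 and 10.7 CPM in Barx1-only and 22.3 and 360.1 CPM in Nkx6-1-only cells, yet 97 of its 99 UMIs in Nkx6-1-only cells of replicate 2 came from 1 cell. Acta2 had 4.25 and 10.7 CPM in Barx1-only and 19.8 and 156 CPM in Nkx6-1-only cells, and 40 of its 43 UMIs there came from 1 cell of replicate 2. The calls for Tagln and Acta2 therefore rested on 1 cell each in 1 library. Genes of FGF signalling (8 tested), the heterochronic list around Lin28 and Hmga2 (8), cardiac transcription factors (10), S phase (19) and G2 and M phase (22) had no member past the threshold in either direction, with medians of 0.29, -0.09, 0.31, 0.13 and -0.08.

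Outside these lists, genes higher in Barx1-only cells included Ddc, the decarboxylase that makes dopamine and serotonin, at 106 and 107 CPM in Barx1-only and 12.4 and 21.8 CPM in Nkx6-1-only cells (2.72 ± 0.49 SE, edgeR adjusted p = 0.000457). Plagl1, an imprinted zinc-finger gene, had 102 and 133 CPM in Barx1-only and 29.7 and 10.9 CPM in Nkx6-1-only cells (5.38-fold). The desmosomal cadherin Dsg2 had 93.4 and 42.7 CPM in Barx1-only and 12.4 and 0 CPM in Nkx6-1-only cells, and the adhesion molecule Alcam 46.7 and 74.7 CPM in Barx1-only and 9.89 and 10.9 CPM in Nkx6-1-only cells. Krt8, a keratin of epithelial cells and 1 of the endoderm markers, was higher in Barx1-only cells, at 55.2 and 58.7 CPM in Barx1-only and 7.42 and 10.9 CPM in Nkx6-1-only cells (edgeR adjusted p = 0.0254), and did not pass without the library term or with thinned cells. It was the 1 of 11 tested endoderm markers that passed, and the whole list summed to 204 and 176 CPM in Barx1-only and 91.5 and 215 CPM in Nkx6-1-only cells. The part of endoderm RNA in the difference of Dsg2 was not tested. Tmem88, a membrane protein known to dampen Wnt signalling, had 59.4 and 74.7 CPM in Barx1-only and 9.89 and 3.64 CPM in Nkx6-1-only cells. A pair of further calls rested largely on 1 cell: Phlda2, with 19 of 27 UMIs of replicate 2 in 1 Barx1-only cell, and Igfbp3, with 14 of 23.

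Genes lower in Barx1-only cells outside the lists included Npnt, which codes for the integrin ligand nephronectin, at 17 and 10.7 CPM in Barx1-only and 114 and 109 CPM in Nkx6-1-only cells (-2.97 ± 0.51 SE, edgeR adjusted p = 0.000251). The matricellular gene Smoc2 had 0 UMIs in Barx1-only and 138 and 47.3 CPM in Nkx6-1-only cells, at least 6.46-fold lower, and the tight junction gene Cldn11 had 0 UMIs in Barx1-only and 79.1 and 21.8 CPM in Nkx6-1-only cells, at least 3.51-fold lower. Pdlim4, which encodes a PDZ and LIM domain protein of the actin cytoskeleton, had 21.2 and 26.7 CPM in Barx1-only and 131 and 120.0 CPM in Nkx6-1-only cells (5.35-fold lower, edgeR adjusted p = 0.00159). Snai1, a repressor known from epithelial to mesenchymal transition, was 6.06-fold lower, and Pgf, placental growth factor, was lower at 8.49 and 10.7 CPM in Barx1-only cells (2 and 2 UMIs) and 76.6 and 50.9 CPM in Nkx6-1-only cells.

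**Figure D3:**
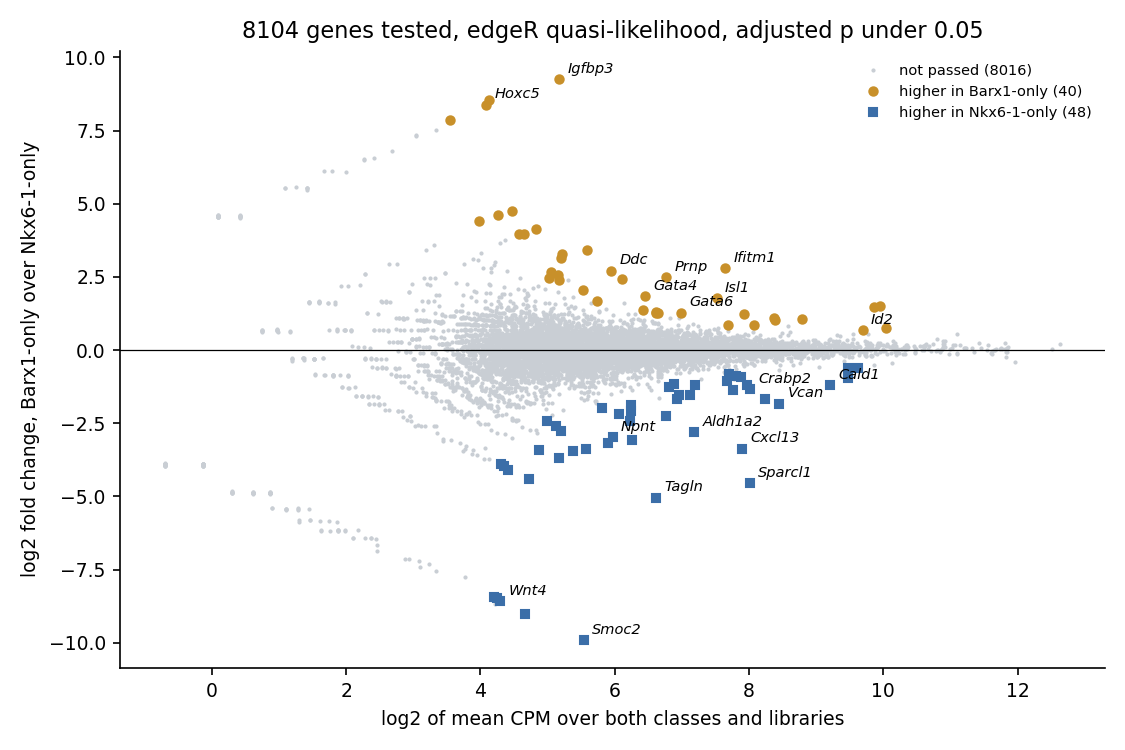
Log2 fold change of Barx1-only over Nkx6-1-only cells (vertical axis) against the log2 mean CPM of both classes (horizontal axis), 1 point per gene tested; coloured points passed the adjusted p threshold, 40 higher and 48 lower in Barx1-only cells. Sparcl1 lay at -4.55 and Ifitm1 at 2.80.

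Hedgehog target genes did not separate the members from each other. None of the 5 tested passed between Barx1-only and Nkx6-1-only cells (median -0.48), nor did any of 7 genes of Hedgehog reception and transduction (median 0.11). Gli1, the transcription factor that reads out the pathway, had 38.2 and 48 CPM in Barx1-only and 44.5 and 72.7 CPM in Nkx6-1-only cells (-0.40 ± 0.48 SE, edgeR adjusted p = 0.902). The receptor Ptch1, with an overlapping transcript on its strand, had 123 and 85.3 CPM in Barx1-only and 119 and 69.1 CPM in Nkx6-1-only cells (0.14 ± 0.30 SE, edgeR adjusted p = 0.964). Hhip, a membrane protein that binds Hedgehog ligand, had 59.4 and 21.3 CPM in Barx1-only and 86.5 and 50.9 CPM in Nkx6-1-only cells (-0.73 ± 0.47 SE, edgeR adjusted p = 0.747). With standard errors of 0.30 to 0.48, differences of several times that size could also fail to pass. The lack of a call therefore does not show equal levels.

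Both classes were then set against the same Tbx5-positive cells, 58 and 57 cells with a median of 2338.5 and 2401 UMIs, which are the reference for both comparisons, so the comparisons are not independent of each other. Barx1-only cells had 8 genes higher (0.0987% of 8104) and 22 lower (0.271%), and Nkx6-1-only cells had 3 higher (0.037%) and 17 lower (0.21%). Without the library term the counts were 2 higher and 6 lower for Barx1-only and 0 and 4 for Nkx6-1-only cells. These comparisons were added after the data had been seen. Tbx5 itself, a gate gene, was at 29.7 and 16 CPM in Barx1-only, 255 and 182 CPM in Nkx6-1-only and 411 and 461 CPM in Tbx5-positive cells.

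Sparcl1, Aldh1a2, Vcan, Wnt2 and Ifitm1 passed between Barx1-only and Tbx5-positive cells and did not pass between Nkx6-1-only and Tbx5-positive cells. The difference between the classes themselves is the one tested in the split. Sparcl1 was at 368 and 273 CPM in Tbx5-positive cells, from which Barx1-only cells differed by -3.89 ± 0.43 SE (edgeR adjusted p = 4.81e-08) and Nkx6-1-only cells by 0.65 ± 0.20 SE (edgeR adjusted p = 0.278). Aldh1a2 was at 147 and 209.8 CPM there, with differences of -2.26 ± 0.41 SE in Barx1-only (edgeR adjusted p = 0.00144) and 0.55 ± 0.24 SE in Nkx6-1-only cells (edgeR adjusted p = 0.62). Vcan was at 554 and 309 CPM, with differences of -1.47 ± 0.23 SE (edgeR adjusted p = 8.38e-05) in Barx1-only and 0.36 ± 0.17 SE (edgeR adjusted p = 0.66) in Nkx6-1-only cells. Wnt2, at 225 and 215 CPM in Tbx5-positive cells, differed by -4.18 ± 0.54 SE in Barx1-only (edgeR adjusted p = 1.66e-06) and -1.003 ± 0.29 SE in Nkx6-1-only cells (edgeR adjusted p = 0.192). Ifitm1, at 42.6 and 52.4 CPM in Tbx5-positive cells, was 7.57-fold higher in Barx1-only cells (2.92 ± 0.30 SE, edgeR adjusted p = 9.04e-09), and its difference in Nkx6-1-only cells was 0.12 ± 0.42 SE (edgeR adjusted p = 0.986).

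For Gata4 and Gata6 the comparison with Nkx6-1-only cells passed and that with Barx1-only cells did not. Gata4 was at 124 and 131 CPM in Tbx5-positive cells, with a difference of 0.13 ± 0.31 SE in Barx1-only (edgeR adjusted p = 0.948) and -1.73 ± 0.37 SE in Nkx6-1-only cells (edgeR adjusted p = 0.0163). Gata6 was at 237 and 142 CPM, with -0.04 ± 0.25 SE in Barx1-only (edgeR adjusted p = 0.993) and -1.32 ± 0.27 SE in Nkx6-1-only cells (edgeR adjusted p = 0.00896). Isl1, at 190.0 and 142 CPM in Tbx5-positive cells, lay between the classes and passed for neither, with 0.80 ± 0.26 SE in Barx1-only (edgeR adjusted p = 0.237) and -0.99 ± 0.31 SE in Nkx6-1-only cells (edgeR adjusted p = 0.281). Cxcl13 differed between the Tbx5-positive libraries (65.9 and 231 CPM), was higher in Nkx6-1-only cells (1.70 ± 0.30 SE, edgeR adjusted p = 0.00163) and did not pass in Barx1-only cells (-1.67 ± 0.54 SE, edgeR adjusted p = 0.208).

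Other genes passed for 1 of the classes. The G1 cyclin gene Ccnd2 was at 1915 and 997 CPM in Barx1-only and 551 and 540.1 CPM in Tbx5-positive cells (1.45 ± 0.17 SE, edgeR adjusted p = 2.58e-07). The TGF-beta ligand gene Tgfb2 was at 76.4 and 48 CPM in Barx1-only and 205 and 262 CPM in Tbx5-positive cells (edgeR adjusted p = 0.00549). Rspo2, a secreted enhancer of Wnt signalling, had 0 and 1 UMIs in Barx1-only cells, against 89.2 and 68.2 CPM in Tbx5-positive cells (33.9-fold, 95% counting interval 5.72 to 1378). The heart and limb factor Hand2 had 2 and 0 UMIs in Nkx6-1-only cells, against 65.9 and 42 CPM in Tbx5-positive cells (18.9-fold, 4.72 to 165). Kitl, the ligand of the receptor Kit, was at 106 and 94.6 CPM in Nkx6-1-only and 283 and 173 CPM in Tbx5-positive cells (edgeR adjusted p = 0.0494). The call of Tagln in Nkx6-1-only cells rested on the cell named above.

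Bmp4, the BMP ligand gene, was lower in both classes, at 21.2 and 58.7 CPM in Barx1-only and 64.3 and 90.9 CPM in Nkx6-1-only cells, against 240.4 and 278 CPM in Tbx5-positive cells (-2.73 ± 0.47 and -1.74 ± 0.36 SE, edgeR adjusted p = 0.000582 and 0.00896). The cardiac homeobox gene Nkx2-5 was lower in both as well, at 4.25 and 26.7 CPM in Barx1-only and 0 and 7.27 CPM in Nkx6-1-only cells, against 89.2 and 121 CPM in Tbx5-positive cells. Sfrp5, a Wnt antagonist of the venous pole, had 0 UMIs in both classes, at least 5.98-fold lower in Barx1-only and at least 9.38-fold lower in Nkx6-1-only cells than in Tbx5-positive cells. The reference cells were chosen by Tbx5, a heart field factor, so these differences need not be independent of that gate.

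All members in 1 sum differed from Tbx5-positive cells in few genes. Of 10035 genes tested, 7 were higher (0.0698%) and 10 lower (0.0997%), and without the library term 0 were higher and 2 lower (Sfrp5 and Unc45b), while 711 had an unadjusted p under 0.05 with it. Ifitm1 was higher, at 155 and 184 CPM in members and 42.6 and 52.4 CPM in Tbx5-positive cells (1.88 ± 0.29 SE, edgeR adjusted p = 0.000886). Among the members, most of this Ifitm1 was in Barx1-only cells. Lgals1, which codes for galectin-1, had 209 and 357 CPM in members and 155 and 83.9 CPM in Tbx5-positive cells (edgeR adjusted p = 0.0212), and Marcks, a membrane-bound substrate of protein kinase C, 533 and 858 CPM in members and 353 and 446 CPM in Tbx5-positive cells (edgeR adjusted p = 0.0418). Hmga2, a chromatin protein of the heterochronic list, had 903 and 875 CPM in members and 578 and 545 CPM in Tbx5-positive cells (0.71 ± 0.14 SE, edgeR adjusted p = 0.0115), the 1 of 8 in that list that passed, and Ccnd2 1005 and 736 CPM in members and 551 and 540.1 CPM in Tbx5-positive cells (0.72 ± 0.13 SE).

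The genes lower in members than in Tbx5-positive cells included cardiac and venous pole genes. All Tbx5-positive cells were chosen by Tbx5, a heart field factor, and 52 of 124 and 28 of 96 members had a UMI of it. These differences need not be independent of that gate. Nkx2-5 had 1.52 and 15 CPM in members and 89.2 and 121 CPM in Tbx5-positive cells (-3.79 ± 0.52 SE, edgeR adjusted p = 0.000181), and Mef2c, a MADS-box factor of the second heart field, 30.4 and 25.7 CPM in members and 132 and 83.9 CPM in Tbx5-positive cells (-1.93 ± 0.38 SE, edgeR adjusted p = 0.0127). These were 2 of 12 cardiac transcription factors tested (median -1.41, against 0.02 over all genes). Sfrp5 had 0 UMIs in members and 77.5 and 94.4 CPM in Tbx5-positive cells, at least 15.7-fold lower. Bmp4 was 4.05-fold and Wnt2 3.03-fold lower. The imprinted growth genes H19 (2166 and 2040.5 CPM in members, 3714 and 3388 CPM in Tbx5-positive cells) and Igf2 (625 and 813 CPM in members, 1609 and 1075 CPM in Tbx5-positive cells) were lower too (-0.72 ± 0.13 and -0.88 ± 0.15 SE, edgeR adjusted p = 0.00467 and 0.00463). Both overlap other annotated transcripts on their strand. None of 22 gut transcription factors, 14 Hox genes, 18 matrix genes, 10 retinoic acid genes, 10 FGF genes, 5 Notch genes or 13 smooth muscle genes passed.

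Hedgehog targets were not told apart between members and Tbx5-positive cells and were higher in members than in pharyngeal-gate cells. None of 6 passed between members and Tbx5-positive cells (median 0.02). Gli1 was at 42.5 and 62 CPM in members and 38.8 and 21 CPM in Tbx5-positive cells (0.74 ± 0.45 SE, edgeR adjusted p = 0.784), Ptch1 at 117 and 77 CPM in members and 109 and 115 CPM in Tbx5-positive cells (-0.13 ± 0.26 SE, edgeR adjusted p = 0.95), and Hhip at 75.9 and 38.5 CPM in members and 38.8 and 10.5 CPM in Tbx5-positive cells (1.19 ± 0.48 SE, edgeR adjusted p = 0.6). In pharyngeal-gate cells, which by their gate lack Foxf1, Gli1 was at 6.01 and 17 CPM, Ptch1 at 30.1 and 36.6 CPM and Hhip at 3.01 and 6.53 CPM.

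Against pharyngeal-gate cells, 85 genes were higher in members (0.847% of 10035) and 146 lower (1.45%), 2.3% in all, and 23 and 35 without the library term. These 99 and 183 cells were chosen by Tbx1, a T-box gene of the pharynx, or Msc, a branchiomeric muscle gene. Of 6 Hedgehog targets, 4 were higher in members and none were lower (median 2.42, against 0.01 over all genes). The differences were 1.95 ± 0.43 SE for Gli1 (edgeR adjusted p = 0.00748), 1.45 ± 0.27 SE for Ptch1 (edgeR adjusted p = 0.00101) and 3.28 ± 0.54 SE for Hhip (edgeR adjusted p = 0.000226). Foxl1, a forkhead gene of gut mesenchyme that overlaps Gm20388 on its strand and lies near Foxf1, was 7.47-fold higher by UMIs (95% counting interval 2.26 to 38.9), so its counts are uncertain. Fendrr was higher (edgeR adjusted p = 0.000128), with 2 and 2 UMIs in pharyngeal-gate cells. Because Fendrr lies beside Foxf1, which the rule for members asks for in part and this gate leaves out, the difference is not independent of the gates. Foxf1 is itself a Hedgehog response, so the differences of the Hedgehog targets are not independent of these gates either. The part of the gates in them was not tested.

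**Figure D4:**
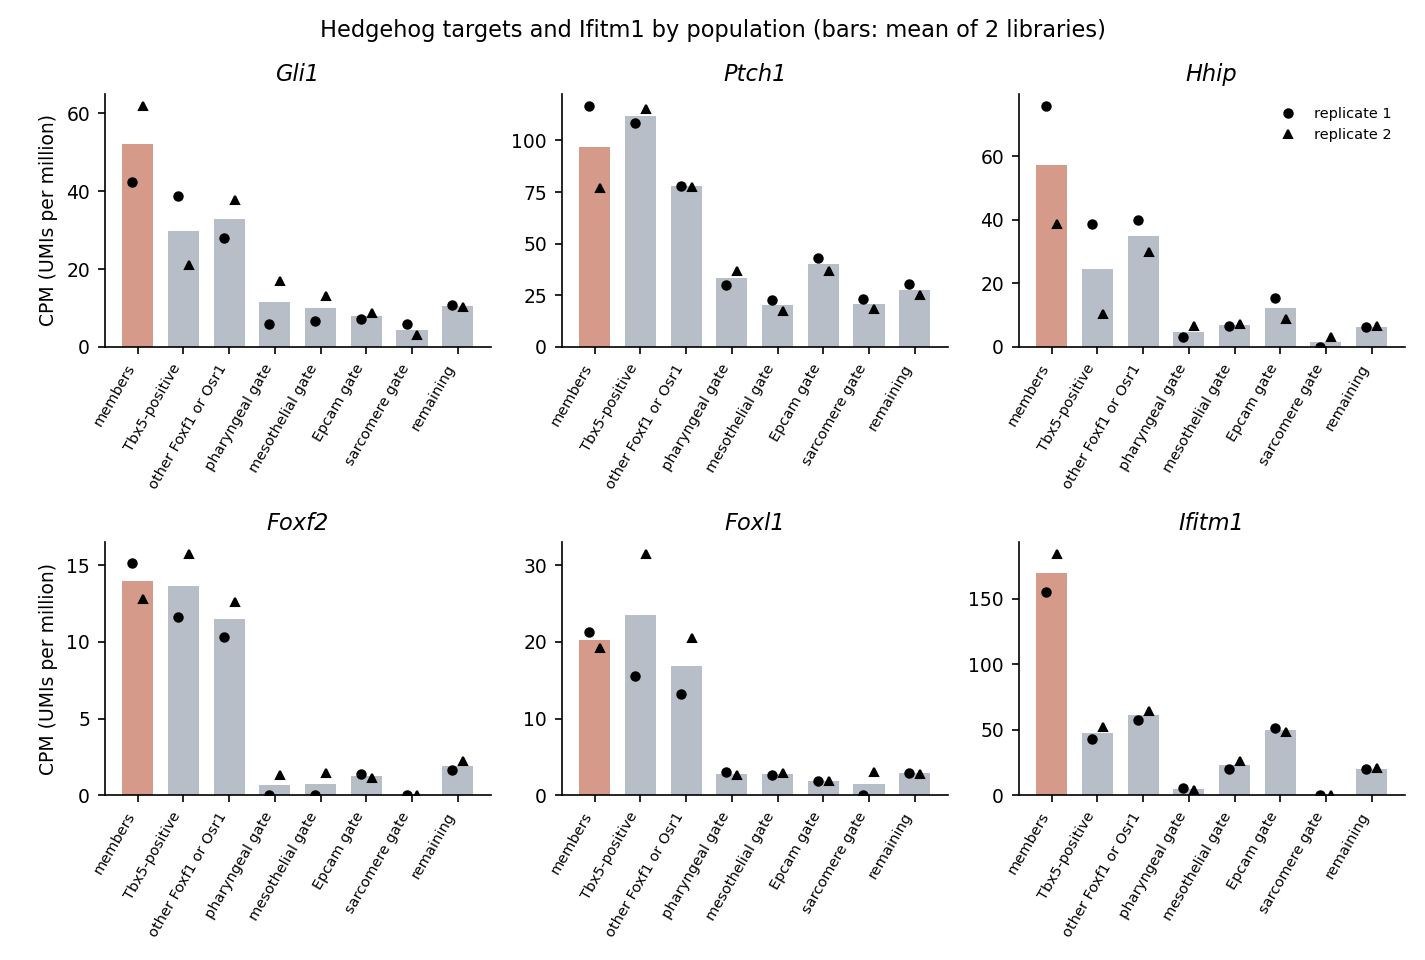
Level of the Hedgehog targets Gli1, Ptch1, Hhip, Foxf2 and Foxl1 and of Ifitm1 in 8 populations, with the members on the left, as CPM on the vertical axis of each panel; each point is 1 library and bars are the mean of 2 libraries. Gli1 was at 42.5 and 62 CPM in members, 38.8 and 21 CPM in Tbx5-positive cells and 6.01 and 17 CPM in pharyngeal-gate cells.

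Of 22 gut transcription factors, 8 were higher in members than in pharyngeal-gate cells and 1, Meis2, was lower (median 0.57). Nr2f2, the nuclear receptor COUP-TFII of gut and venous mesenchyme, had 440.2 and 445 CPM in members and 162 and 146 CPM in pharyngeal-gate cells (2.82-fold, edgeR adjusted p = 9.76e-08). The forkhead gene Foxp1 had 346 and 387 CPM in members and 162 and 135 CPM in pharyngeal-gate cells (2.51-fold). Ifitm1 had 155 and 184 CPM in members and 6.01 and 3.92 CPM in pharyngeal-gate cells (edgeR adjusted p = 9.48e-11), those of pharyngeal-gate cells resting on 2 and 3 UMIs, and Cxcl13 325 and 231 CPM in members and 36.1 and 7.84 CPM in pharyngeal-gate cells, 16.2-fold higher (4.02 ± 0.41 SE, edgeR adjusted p = 1.4e-07). Aldh1a2 had 168 and 175 CPM in members and 60.1 and 30.1 CPM in pharyngeal-gate cells (4.25-fold).

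Some genes of FGF response and of retinoic acid handling were lower. Of 10 FGF genes 3 were lower and none higher (median -2.01). Dusp6, a feedback inhibitor that FGF signalling switches on, had 15.2 and 27.8 CPM in members, against 114 and 122 CPM in pharyngeal-gate cells (5.56-fold lower). Spry2, another such inhibitor, had 4.55 and 10.7 CPM in members, against 39.1 and 79.7 CPM in pharyngeal-gate cells (7.96-fold lower). Of 10 retinoic acid genes, Aldh1a2 was higher and Crabp1, Crabp2 and Cyp26a1, an enzyme that degrades retinoic acid, lower (median -0.02). Crabp1, a retinoic acid binding protein, had 47.1 and 152 CPM in members and 796 and 2056 CPM in pharyngeal-gate cells (15-fold lower, edgeR adjusted p = 2.04e-10). The cardiac and limb homeobox gene Irx3 had 6.07 and 6.42 CPM in members and 126 and 86.3 CPM in pharyngeal-gate cells, and the ligand Wnt5a 39.5 and 23.5 CPM in members and 108 and 122 CPM in pharyngeal-gate cells. All 5 tested limb and lateral plate markers and 5 of 10 endothelial markers were lower in members. The limb list, whose sum also holds the untested gate gene Tbx5, summed to 296 and 310.1 CPM in members and 628 and 525 CPM in pharyngeal-gate cells. The endothelial list summed to 48.6 and 42.8 CPM in members and 364 and 268 CPM in pharyngeal-gate cells. Of 7 erythroid markers, Hbb-y, Hbb-bh1 and Hba-x were lower, with sums of 1328 and 1259.8 CPM in members and 1649.8 and 14237 CPM in pharyngeal-gate cells, so that the pharyngeal-gate cells of replicate 2 stood apart. Of 4 tested paraxial mesoderm markers, Meox1 and Pax3 were lower, with sums over the list of 10.6 and 19.2 CPM in members and 153 and 188 CPM in pharyngeal-gate cells. The mesothelial marker Podxl was higher, 1 of 6 tested. The part of that RNA in these differences was not tested.

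Outside the lists, Dsp, Npnt, Ezr and Epha7 were among the genes higher in members than in pharyngeal-gate cells. Dsp, which codes for the desmosome protein desmoplakin, had 82 and 21.4 CPM in members and 9.02 and 9.15 CPM in pharyngeal-gate cells (4.82-fold, edgeR adjusted p = 0.00334). Npnt had 75.9 and 68.4 CPM in members and 24 and 20.9 CPM in pharyngeal-gate cells (3.5-fold, edgeR adjusted p = 0.00217), and Ezr, a linker of membrane and actin, 165 and 113 CPM in members and 45.1 and 35.3 CPM in pharyngeal-gate cells (edgeR adjusted p = 0.000121). Epha7, an ephrin receptor, had 119.9 and 49.2 CPM in members and 30.1 and 18.3 CPM in pharyngeal-gate cells (edgeR adjusted p = 0.00157). These 4 genes were chosen among large changes that moved alike in both libraries. That both libraries of members lay above both of pharyngeal-gate cells follows in part from this choice. Among secreted factors, 3 of 15 were higher and 4 lower (median -0.23). The heparin-binding growth factor Ptn had 559 and 511 CPM in members and 1746 and 1293 CPM in pharyngeal-gate cells (2.85-fold lower, edgeR adjusted p = 2.72e-10), and Dlk1 182 and 252 CPM in members and 814 and 708 CPM in pharyngeal-gate cells (3.54-fold lower). In the matrix list, 1 of 18 was higher and 3 lower (median -0.76), among them Hapln1, a link protein of hyaluronan, at 22.8 and 6.42 CPM in members and 111 and 64 CPM in pharyngeal-gate cells. Col26a1, a collagen gene outside that list, had 19.7 and 21.4 CPM in members and 135 and 111 CPM in pharyngeal-gate cells, and Serpinf1, a secreted serpin, 10.6 and 17.1 CPM in members and 108 and 123 CPM in pharyngeal-gate cells.

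Against the mean of the log levels of all 7 other populations, 240 genes were higher (2.39%) and 169 lower (1.68%), 4.08% in all, and 44 and 24 without the library term. Of 6 Hedgehog targets, 5 were higher (median 2.08, against 0.03 over all genes), with 2.57 ± 0.32 SE for Hhip and 1.28 ± 0.18 SE for Ptch1 (edgeR adjusted p = 2.56e-06 and 2.62e-05). Fendrr was higher by 3.51 ± 0.40 SE and Cxcl13 by 4.21 ± 0.29 SE (edgeR adjusted p = 8.94e-07 and 2.33e-11). A mean of log levels is pulled down by populations with few or no UMIs of a gene, as sarcomere-gate cells were for both. Sizes in this comparison are therefore not ratios of average CPM. Fendrr also lies beside Foxf1, by which the members were chosen in part. Foxf1 is a Hedgehog response, and most of the other populations were not chosen for it. The differences of the Hedgehog targets are therefore not independent of the gates either. Gdnf, the neurotrophic factor that draws enteric neural crest cells into the gut, had 39.5 and 29.9 CPM in members and averaged 5.16 and 7.89 CPM over the others (13-fold in the fit, edgeR adjusted p = 3.92e-05). Of 14 Hox genes, 5 were higher and none lower (Hoxa2, Hoxa3, Hoxa5, Hoxb1 and Hoxb4, median 0.94). Hoxa3 overlaps Hoxa4, Hoxa5 and Hoxa6 on the same strand, so the counts of Hoxa3 and Hoxa5 are uncertain. Of 22 gut transcription factors, 9 were higher and Hand2 lower, 4 of 12 cardiac transcription factors were lower and none higher (median -1.36), and 4 of 20 S phase and 3 of 22 G2 and M phase genes were higher. In smooth muscle, Cald1 was higher and Acta2, Cnn2, Des and Tpm1 lower, against populations that include heart muscle cells. Members had a median of 4337 and 3639.5 UMIs per cell and the remaining cells 1110.5 and 1227, with the other populations between them. The part of depth in these calls, those of the cell cycle genes included, was not tested.

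In levels, Aldh1a2 had 168 and 175 CPM in members against an average of 61.4 and 69 CPM over the other populations (2.21 ± 0.19 SE, edgeR adjusted p = 1.31e-09), and Sparcl1 408 and 209.6 CPM in members against 114 and 94.2 CPM (2.10 ± 0.15 SE, edgeR adjusted p = 3.23e-11). Within the members both were lower in Barx1-only than in Nkx6-1-only cells. The nuclear receptor Nr2f2 had 440.2 and 445 CPM in members and 273 and 248 CPM over the others (0.83 ± 0.10 SE), and Barx1-only and Nkx6-1-only cells differed in it by -0.10 ± 0.17 SE (edgeR adjusted p = 0.943). Sox11, a factor of embryonic progenitors, had 560.1 and 678 CPM in members and 417 and 378 CPM over the others (0.79 ± 0.09 SE), with 0.07 ± 0.16 SE between the classes (edgeR adjusted p = 0.964). Hmga2, 1 of 8 heterochronic genes that passed, had 903 and 875 CPM in members and 554 and 429.8 CPM over the others (0.91 ± 0.09 SE, edgeR adjusted p = 2.73e-08).

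**Figure D5:**
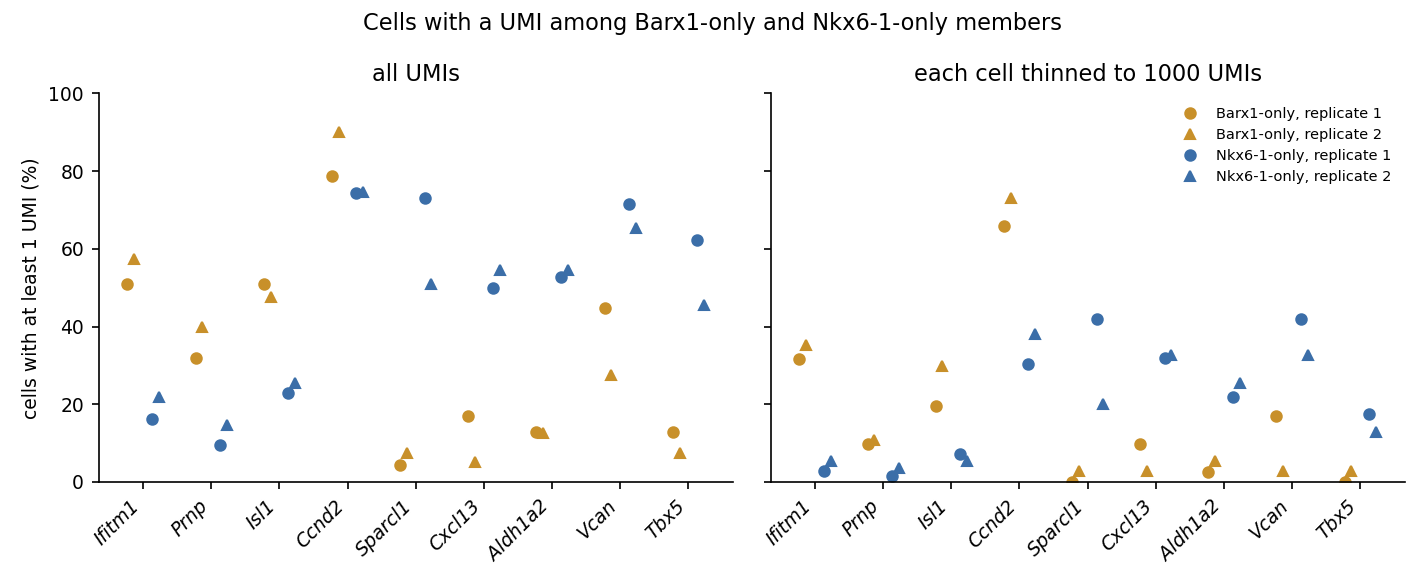
Share of cells with at least 1 UMI of each gene, in percent on the vertical axis, in Barx1-only and Nkx6-1-only cells of each library, before and after thinning every cell to 1000 UMIs. Sparcl1 UMIs were in 4.26% and 7.5% of Barx1-only and 73% and 50.9% of Nkx6-1-only cells, and after thinning in 0% and 2.7% of Barx1-only and 42% and 20% of Nkx6-1-only cells.

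Markers of other cell types were summed in each population. Endothelial markers summed to 48.6 and 42.8 CPM with Cdh5, Emcn, Tie1 and Esam at 0, 4 of 10 markers. Neural crest and glial markers summed to 28.8 and 23.5 CPM with 6 of 9 at 0, Sox10 and Foxd3 among them, and cardiomyocyte markers to 22.8 and 19.2 CPM with Myl2 at 0, 1 of 8. Endoderm markers summed to 134 and 199 CPM with Cdh1, Sox17 and Nkx2-1 at 0, 3 of 12. The other 9, Foxa1, Foxa2 and Shh among them, had UMIs in members. Endoderm sums were 171 and 215 CPM in Tbx5-positive, 132 and 204 CPM in pharyngeal-gate and 2455 and 2519 CPM in Epcam-gate cells. Mesothelial markers summed to 83.5 and 85.6 CPM in members with 4 of 9 at 0. They summed to 48.1 and 34 CPM in pharyngeal-gate and 529 and 506 CPM in mesothelial-gate cells. Haemoglobin and other erythroid markers, all 7 present, summed to 1328 and 1259.8 CPM in members, 1194 and 1389.7 CPM in Tbx5-positive cells, 951 and 1129 CPM in sarcomere-gate cells and 62816 and 57831 CPM in the remaining cells, and 4 of 7 were lower in members than the mean of the 7 other populations. Ectomesenchyme markers were at 8.49 and 112 CPM in Barx1-only and 19.8 and 32.7 CPM in Nkx6-1-only cells, so the Barx1-only cells of replicate 2 held more of them. Markers of limb and lateral plate mesenchyme, which include Tbx5, were at 89.2 and 149 CPM in Barx1-only, 420.3 and 422 CPM in Nkx6-1-only and 636 and 619 CPM in Tbx5-positive cells. Tbx5, by which the Tbx5-positive cells were chosen, made up most of their sum and much of that in Nkx6-1-only cells. The order of these sums therefore rests in part on that gate gene. Every count of changed genes stayed within 1.5 times its value when cells with Cdh5, Pecam1, Sox10, Dlx2 or Dlx5 were left out.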

How the data were processed

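For each of 2 Drop-seq libraries the authors deposited raw UMI counts, a matrix of genes by barcodes that holds whole numbers only. The submitters' processing notes name mm10 and Scanpy without versions, and aligner, counting tool and barcode selection are not given there. Of 52550 gene identifiers, 99.7% were found in GENCODE M21, used for positions and strands. The members and the gene lists were chosen with earlier results of these data known. Kept were barcodes with 400 or more genes and 10% or less mitochondrial UMIs (4038 and 4934, median 1364 and 1505 UMIs). Scrublet, run with an expected doublet share of 6%, called 0 and 1 doublets. Its calls were not used and none were removed, and whether they missed doublets was not tested. The libraries shared 82 of all barcodes and none that passed.

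Counts were summed per library and population (16 sums, or 20 where members were split), scaled by TMM, filtered with filterByExpr and tested with edgeR 4.0.16 (glmQLFit and glmQLFTest, with limma 3.58.1 and R 4.3.3). Library was a term because all populations of a library come from 1 embryo pool and day; library deviations from the population means correlated at 0.417 to 0.741 between members and the other populations over 2084 genes. Per the labels the libraries are separate embryo pools of 1 group, and 2 pools are few. With library as a term, the difference that all populations share between the pools is taken out. A p-value then measures against the spread that is left, estimated over all populations together, and not against the spread between pools. In each of the first 4 comparisons the text names the largest changes of either direction among genes past the threshold that moved alike in both libraries and reached 50 CPM, the label genes Fendrr and Cxcl13, the Hedgehog targets, and the leading members of each list; genes for the 2 comparisons with Tbx5-positive cells of each class were chosen after their values were seen. In simulated counts with known changes, 25.8% of 2-fold and 71.7% of 4-fold changes were recovered between Barx1-only and Nkx6-1-only cells, and 25.5% and 64.2% between members and Tbx5-positive cells. The simulation gave all populations 1 common profile apart from those changes, the same spread for every gene and no library effect. The real counts differ in each of these, so the rates need not hold for them. Other software was DESeq2 1.42.0, Python 3.11.15, numpy 2.4.6, scipy 1.17.1, pandas 2.3.3 and scanpy 1.11.5. Intervals for shares are exact Clopper-Pearson, and intervals for ratios of few UMIs are exact for counting error only. Results of some genes are not reported here.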

Additional observations from a re-analysis of the deposited data

How the results depend on the processing

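The alternatives were DESeq2, RLE scaling, no filter on low counts, no replicate block, thinning to 1000 UMIs, at least 2 UMIs of Barx1 and Nkx6-1, Foxf1 required, at least 800 genes, at most 5% mitochondrial UMIs, likely doublets or marker cells left out, and each library left out. Counts of genes past the threshold are higher then lower, in the order members over Tbx5-positive, over pharyngeal-gate and over all other cells, Barx1-only over Nkx6-1-only, Barx1-only over Tbx5-positive and Nkx6-1-only over Tbx5-positive cells. Without the replicate block they were 0 and 2, 23 and 35, 44 and 24, 7 and 9, 2 and 6, and 0 and 4. Thinned they were 0 and 1, 10 and 20, 41 and 25, 5 and 7, 2 and 3, and 0 and 1. Other counts that moved by over 1.5 times were 18 lower in members than in Tbx5-positive cells, 53 higher and 87 lower than in pharyngeal-gate cells, and 0 higher in Nkx6-1-only than in Tbx5-positive cells with DESeq2. With Foxf1 required, 4 were higher in members than in Tbx5-positive cells, 111 lower in members than in all others, 20 higher and 24 lower in Barx1-only than in Nkx6-1-only cells, and 10 lower in Nkx6-1-only than in Tbx5-positive cells. RLE scaling left 4 higher in members and 4 higher in Barx1-only than in Tbx5-positive cells. With at least 2 UMIs, 3 were higher in members than in Tbx5-positive cells, 159 higher in members than in all others and 7 higher in Nkx6-1-only than in Tbx5-positive cells. With at least 800 genes, 4 were higher in Barx1-only than in Tbx5-positive cells. Without the filter, 22 were higher and 24 lower in members, 16 higher in Barx1-only and 13 higher in Nkx6-1-only than in Tbx5-positive cells. Members were 2.51% of cells on average (1.95% to 3.07% with a library left out), 1.33% with Foxf1 required, 1.28% with at least 2 UMIs and 3.89% with at least 800 genes. Counts with a library left out have no residual degrees of freedom, and so no value. The causes of these changes were not tested.

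Ifitm1, Isl1, Sparcl1 and Cxcl13 kept their call between Barx1-only and Nkx6-1-only cells under every alternative with a test, within 2.34 to 3.49 for Ifitm1, 1.21 to 2.37 for Isl1, -7.51 to -3.08 for Sparcl1 and -5.47 to -2.80 for Cxcl13 (highest adjusted p, from edgeR or DESeq2, 0.000275, 0.0302, 6.85e-05 and 0.0166). Directions that turned, nearly all of genes that had not passed, were these. Between members and Tbx5-positive cells, Fendrr reached 0.0928 with at least 2 UMIs, Ptch1 ran from -0.52 to 0.13 and Foxf2 from -0.22 to 0.37 with a library left out, and Foxl1 reached 0.32 with Foxf1 required and -0.62 to 0.45 with a library left out. Between Barx1-only and Nkx6-1-only cells, Gli1 reached 0.0326 with at least 2 UMIs, Ptch1 -0.11 with Foxf1 required, and with a library left out Foxl1 ran from -1.61 to 0.82 and Sox11 from -0.18 to 0.32. Between Barx1-only and Tbx5-positive cells, Gata4 reached -0.51 thinned and -0.0513 to 0.30 with a library left out, Gata6 0.0231 with at least 2 UMIs, 0.22 with Foxf1 required and -0.15 to 0.14 with a library left out, and Cxcl13 -4.18 to 0.0518, the higher without replicate 2. Between Nkx6-1-only and Tbx5-positive cells, Ifitm1 ran from -0.19 to 0.43 with a library left out. There the called Tagln was at -7.90 with at least 2 UMIs, -0.55 with Foxf1 required, and -0.0603 without replicate 2 to 3.28 without replicate 1.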
